A study of Mus musculus with 6 samples.

Results

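The genes described here are the carbohydrate response element-binding protein gene *Mlxipl* (ChREBP) and 7 genes tied to it through glucose and fructose use in the liver: *Mlx*, *Pklr*, *Tkfc*, *Khk*, *Txnip*, *Gckr* and *Slc2a2*. They were taken by name, 8 of 35703 genes in the table, and all 8 passed the filter on low values that left 14219 genes for testing. The names were chosen by the differences in mRNA level between the 2 genotypes, which were already known, so those differences describe these genes below and do not test them. The liver RNA came from 3 mice of the genotype *Surf4 fl/fl Alb-Cre+* and from 3 littermates without the transgene (*Surf4 fl/fl Alb-Cre-*, the controls), with males as replicates 1 and 3 and a female as replicate 2 of either group. Mice of both genotypes carried the same floxed *Surf4* allele, with loxP sites on both sides of exon 2, on a C57BL/6J background. Cre was driven by the albumin promoter, which is active in hepatocytes, and which cells kept *Surf4* was not measured here. The mice ate a chow diet (5L0D) freely. The methods describe an overnight fast before sample collection, without saying whether it covered these livers, and the age of these mice is not given in the labels. *Surf4* itself, which codes for the cargo receptor that the study deleted, was at 92.5, 94.5 and 92.5 TPM (transcript abundance, corrected for transcript length and scaled to the same sum in each mouse) in the controls and at 59.0, 71.8 and 54.3 TPM in the Alb-Cre+ mice. The genotypes therefore did not overlap for the targeted gene. The paper reports that Alb-Cre+ livers still held mRNA of this gene without the floxed exon, and far less mRNA with that exon than controls. TPM summed over the gene do not separate these forms, so the fall given here does not measure the extent of the deletion.

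ChREBP is a transcription factor that responds to sugar phosphates in the hepatocyte. It binds DNA together with its partner MLX, at elements made of a pair of E-box-like boxes, and raises genes of glycolysis, fructose breakdown and fatty acid synthesis after a carbohydrate meal. Fructose enters hepatocytes largely through GLUT2, is phosphorylated by ketohexokinase and is then split, and its glyceraldehyde is phosphorylated by triokinase before joining glycolysis, whose last step in the liver is catalysed by the pyruvate kinase that *Pklr* encodes.

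Promoter sequences were read to show where ChREBP-type elements lie in these genes. RefSeq windows of 300 bases (250 before to 50 after a start, GRCm38.p6) were found for all 8 genes, 10 windows in all because *Pklr* and *Mlxipl* each have a second start. Both strands were searched for the E-box CACGTG and for the paired element CANGNG, 5 bases, CNCNTG, whose 2 parts are E-box-like boxes facing each other. In the stretches below, which run 5′ to 3′ on the strand of the gene and end before its start, capitals mark the match.

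Pklr, liver start, chr3:89136433-89136489, plus strand: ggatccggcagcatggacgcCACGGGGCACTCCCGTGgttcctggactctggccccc
Txnip, chr3:96557852-96557908, plus strand: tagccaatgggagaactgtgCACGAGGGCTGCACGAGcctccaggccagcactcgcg
Khk, chr5:30921476-30921505, plus strand: agcgttccccgtCACGTGacaccgttaatc
Mlx, chr11:101087230-101087275, plus strand: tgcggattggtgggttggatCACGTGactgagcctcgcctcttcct
Mlxipl, upstream start, chr5:135089772-135089817, plus strand: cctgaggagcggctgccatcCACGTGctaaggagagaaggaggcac

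The paired element was present in 1 of the 10 windows, that of the liver start of *Pklr*, where it lay 170 to 154 bases before the start. Of all 32851 RefSeq windows, 0.56% held this element. The E-box was present in the windows of *Khk*, *Mlx* and the upstream start of *Mlxipl*, against 7.15% of all windows. That of *Khk* lay before the RefSeq start but inside the longer first exon that GENCODE M21 gives (chr5:30921431-30922007), so only 30 bases are shown. The *Txnip* window held no match to either motif, but it held the first box of the paired element repeated in the same direction with the same spacing (CANGNG, 5 bases, CANGNG), 85 to 69 bases before the start. This last motif was added after the window had been read, and 1.23% of all windows held it. None of these motifs was found in the windows of *Tkfc*, *Gckr* and *Slc2a2* or at the main start of *Mlxipl*, which says only that these letters are absent from those 300 bases.

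Levels in the control liver differed widely among the 8 genes. On the TPM scale, which is corrected for transcript length, *Tkfc* (mean 211 TPM) and *Khk* (206 TPM) lay above 96% and 95.9% of tested genes in the controls, close to each other in level. *Slc2a2* (79.6 TPM) and *Txnip* (74.0 TPM) followed, and their spreads overlapped. *Gckr* (38.3 TPM), *Pklr* (35.1 TPM) and *Mlx* (25.6 TPM) came next, with a range of *Pklr* that overlapped those of the other two, and *Mlxipl*, at 10.1 TPM, was the lowest and lay above 64.2% of genes. The spread among controls was also uneven: the coefficient of variation was 5.6% for *Mlx* and 9.25% for *Khk*, but 37.3% for *Txnip* and 38.3% for *Slc2a2*.

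Of the 8 genes, 7 had a higher mean in Alb-Cre+ livers, and 49.7% of all tested genes did. In 3 genes, *Tkfc*, *Khk* and *Pklr*, all Alb-Cre+ mice lay above all controls, against 2.19% of all tested genes. The labels number the mice without saying that mice of the same number were paired. In 6 genes each Alb-Cre+ mouse lay above the control of the same number, against 11.5%. Since the genes were chosen with this comparison known, nothing is read from these counts. No gene of the 14219 passed an adjusted p of 0.01 for genotype in limma (0%), these 8 included. The deleted gene *Surf4* did not pass either (limma adjusted p = 0.9999), so failing this test does not show that a gene is unchanged. The paper, which used DESeq2, did report genes at a false discovery rate under 0.01. At an unadjusted p under 0.05 there were 249 genes (1.75%). Those higher in Alb-Cre+ livers numbered 113 (0.795%), among them *Tkfc*, *Khk* and *Pklr*. With the replicate number as a block, again no gene passed, and the number at an unadjusted p under 0.05 was 666 (4.68%). The 323 higher ones (2.27%) then also included *Txnip*, *Slc2a2* and *Mlxipl*. Nothing is read from which of the 8 genes fall among these in either fit, since they were chosen with this comparison known. In these whole-liver samples, fewer cells of a type and less RNA per cell cannot be told apart.

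**Figure D1:**
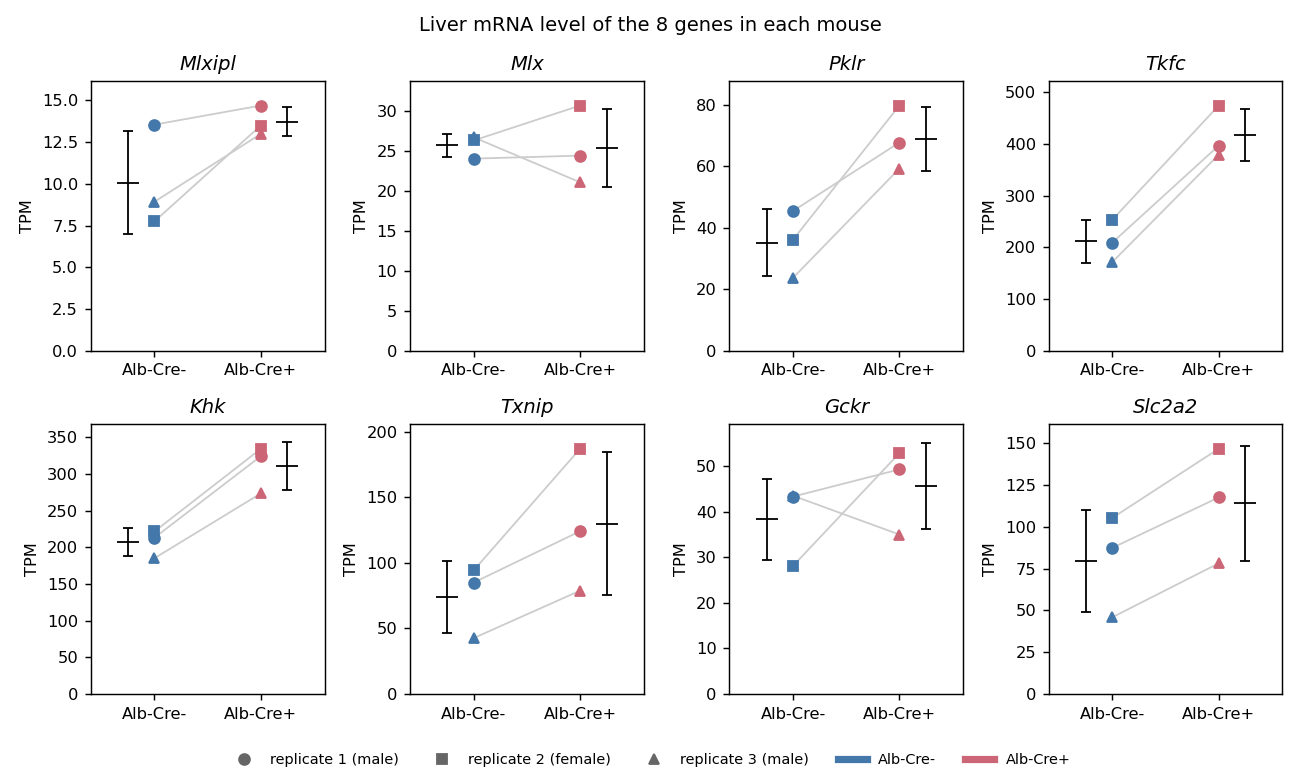
TPM of each of the 8 genes (y axis, from 0) in the 3 *Alb-Cre-* (blue) and 3 *Alb-Cre+* (red) livers; shapes mark the replicate number and sex, grey lines join mice of the same number, and black bars give the mean ± SD. For *Tkfc*, *Khk* and *Pklr* the red points lie above all blue points, whereas for *Mlx* and *Gckr* they are intermixed.

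*Tkfc* encodes triokinase, which phosphorylates the glyceraldehyde and dihydroxyacetone that come from fructose. Its level was 209, 253 and 172 TPM in controls 1, 2 and 3, and 397, 474 and 379 TPM in Alb-Cre+ mice 1, 2 and 3. The lowest Alb-Cre+ mouse was thus well above the highest control, and the difference was similar in each same-numbered pair (0.92, 0.90 and 1.14 on the log2 scale). The mean was 211 ± 40.9 TPM (SD, n = 3) in controls and 417 ± 50.6 TPM (SD, n = 3) with the deletion, a log2 difference of 0.99 (SE 0.18). *Tkfc* had 7 transcripts in the table, and in the 3 most abundant the genotypes did not overlap, a count without a share over all transcripts beside it. The most abundant was at 136, 169 and 110 TPM in controls and at 261, 314 and 259 TPM in Alb-Cre+ mice.

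*Khk* encodes ketohexokinase, the enzyme that commits fructose to metabolism as fructose 1-phosphate. It was at 213, 221 and 185 TPM in controls and at 324, 334 and 273 TPM in Alb-Cre+ mice, so the genotypes did not overlap. The pair differences of *Khk* were the most even of the 8 genes (0.60, 0.59 and 0.56 on the log2 scale), and the mean difference was 0.59 (SE 0.14). On TPM as deposited, the order of the mice from low to high was the same for *Khk* and *Tkfc*: control 3, 1 and 2, then Alb-Cre+ 3, 1 and 2. This exact order was seen in 0.134% of all tested genes, and after rescaling by median of ratios the orders of *Khk* and *Tkfc* differed.

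*Khk* is spliced with either of a pair of neighbouring exons in the place of exon 3, which give the low-affinity A form, made in many tissues, and the high-affinity C form of the liver. The exons are shown because they tell the forms apart in these data. They lie at chr5:30926688-30926822 and chr5:30927022-30927156 (GRCm38, plus strand, GENCODE M21). Both are 135 bases long and match at 73 of 135 positions (54.1%) when laid side by side without gaps. Capitals mark the positions at which they differ.

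Khk, first alternative exon 3 (form A): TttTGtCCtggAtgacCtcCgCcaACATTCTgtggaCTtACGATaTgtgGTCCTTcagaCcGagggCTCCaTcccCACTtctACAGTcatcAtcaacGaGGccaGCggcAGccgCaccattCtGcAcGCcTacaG
Khk, second alternative exon 3 (form C): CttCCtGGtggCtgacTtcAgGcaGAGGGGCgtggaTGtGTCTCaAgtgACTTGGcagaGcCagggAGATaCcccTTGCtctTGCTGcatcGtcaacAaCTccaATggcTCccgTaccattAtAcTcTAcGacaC

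The transcript with the second of these exons alone (form C) held 80.6% to 85.8% of *Khk* TPM in the 6 mice. It was at 181, 183 and 153 TPM in controls and at 272, 269 and 234 TPM in Alb-Cre+ mice, a log2 difference of 0.59 that equalled that of the whole gene. The transcript with the first exon alone (form A) held 1.76% to 3.38%, and its values of 4.6, 6.56 and 3.52 TPM in controls and 6.64, 11.3 and 4.82 TPM in Alb-Cre+ mice overlapped. Form C was therefore the main form in every mouse, and the shares of the forms overlapped between genotypes.

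Ratios within a mouse do not depend on how the whole library was scaled. *Tkfc* over *Khk* was 0.982, 1.14 and 0.928 in controls and 1.22, 1.42 and 1.39 in Alb-Cre+ mice, so the genotypes did not overlap in this ratio, with a mean of 1.02 ± 0.113 (SD, n = 3) in controls and 1.34 ± 0.105 (SD, n = 3) in Alb-Cre+ mice. The triokinase gene was thus about level with the ketohexokinase gene in controls and above it in each Alb-Cre+ mouse. Both genes were chosen with the genotype difference known, and no share over other gene pairs was taken. Nothing is therefore read from this separation.

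A list of other genes of fructose and sorbitol handling was read in the same way. It also holds genes not particular to fructose, among them hexokinase, alcohol dehydrogenase and aldehyde dehydrogenase genes. Of 19 tested genes of this list, 9 were higher and 10 lower in Alb-Cre+ livers, none passed the test, and the median log2 difference was -0.03, against -0.0017 over all genes. *Glyctk*, whose kinase acts on glycerate from the same pathway, differed by 0.05 (SE 0.16), and *Sord*, whose enzyme makes fructose from sorbitol, by -0.03 (SE 0.14). The fructose transporter gene *Slc2a5* was low, at 1.38 to 6.03 TPM in all mice, with a difference of -0.37 (SE 0.55). The 1 gene of this list whose genotypes did not overlap was *Agxt*, which encodes alanine-glyoxylate aminotransferase, at 326, 311 and 349 TPM in controls and at 194, 250 and 169 TPM in Alb-Cre+ mice, a difference of -0.70 (SE 0.16). Over all 14219 tested genes, the genotypes did not overlap in 311 that were higher and 385 that were lower in Alb-Cre+ livers. The gene of this list with the highest difference was *Aldh1a1*, an aldehyde dehydrogenase gene, at 660, 451 and 362 TPM in controls and at 826, 649 and 905 TPM in Alb-Cre+ mice, which overlapped (0.72, SE 0.25). *Aldh1a1* and the alcohol dehydrogenase gene *Adh1* (0.41, SE 0.25), both named after their values were seen, were higher in the Alb-Cre+ mouse of all 3 pairs. So was *Akr1a1* (0.07, SE 0.11), which made 3 of the 19 genes, against 11.5% of all tested genes.

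*Pklr* encodes the pyruvate kinase of liver and red cells and is a classical ChREBP target. It was at 45.5, 36.2 and 23.7 TPM in controls and at 67.8, 79.8 and 59.3 TPM in Alb-Cre+ mice. The genotypes did not overlap, and the pair differences (0.57, 1.14 and 1.32) were less even than those of *Tkfc* and *Khk*. The log2 difference was 1.01 (SE 0.25), the largest of the 8 genes and close to that of *Tkfc*.

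The gene has a pair of first exons, an upstream one used in red cell precursors (chr3:89136142-89136282) and, 430 bases further on, the one used in the liver (chr3:89136572-89136637), after the promoter shown above. Transcripts that start in the liver exon held 99.3% to 100% of *Pklr* TPM in 5 mice and 89.4% in control 3. In control 3 the red cell transcript was at 2.52 TPM, and that mouse also had the highest summed erythroid markers, 304.5 TPM against 72.8 to 217.7 TPM in the others, a measure whose part in this was not tested. Counted from the liver exon alone, *Pklr* was at 45.4, 36.2 and 21.2 TPM in controls and at 67.6, 79.2 and 59.3 TPM in Alb-Cre+ mice, a log2 difference of 1.06. The pyruvate kinase gene of other tissues, *Pkm*, was at 5.82 to 22.7 TPM, highest in both females, and differed by 0.07 (SE 0.52) between genotypes.

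**Figure D2:**
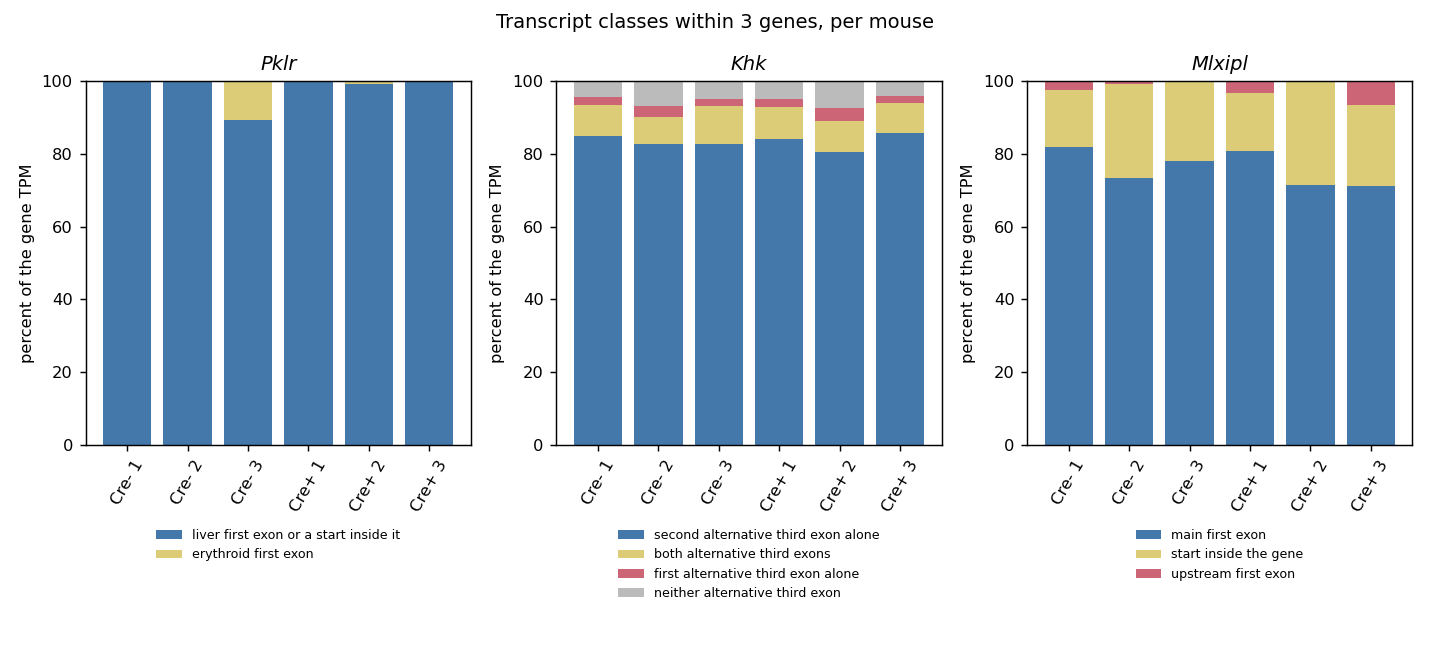
Share of each gene's TPM (y axis, percent) held by classes of transcripts of *Pklr*, *Khk* and *Mlxipl* in each of the 6 livers. The liver first exon of *Pklr* holds 89.4% in control 3 and at least 99.3% in the others, form C of *Khk* holds 80.6% to 85.8%, and the 1 annotated transcript of the upstream start of *Mlxipl*, which has no coding bases, holds at most 6.7%.

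*Mlxipl* was at 13.5, 7.75 and 8.92 TPM in controls and at 14.7, 13.5 and 13.0 TPM in Alb-Cre+ mice. Control 1 lay within the Alb-Cre+ range, so the genotypes overlapped, although the Alb-Cre+ mice were close together (13.7 ± 0.872 TPM, SD, n = 3) and the controls were not (10.1 ± 3.06 TPM, SD, n = 3). The log2 difference was 0.48 (SE 0.22), and the pair differences were 0.12, 0.79 and 0.54. All 10 *Mlxipl* transcripts in the table had a higher mean of log2(TPM + 0.1) in Alb-Cre+ mice, and in 3 of them, each with a mean under 3 TPM, the genotypes did not overlap. Such counts were not made over all transcripts, and transcripts of the same gene divide the same reads. Nothing is therefore read from these counts. The longest protein-coding transcript was at 5.78, 3.41 and 3.63 TPM in controls and at 6.47, 3.58 and 5.00 TPM in Alb-Cre+ mice, which overlapped.

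ChREBP exists in a full-length form and in a shorter beta form, whose transcript starts at an exon 17028 bases upstream of the main one and whose own start is itself a ChREBP target. The 1 transcript of that exon in this annotation was listed at 0.350, 0.0712 and 0 TPM in controls and at 0.466, 0 and 0.870 TPM in Alb-Cre+ mice. It is annotated as a processed transcript of 4 exons and 412 bases without coding bases, so its level does not measure a whole beta mRNA. Each genotype held a mouse at 0, and the share of the gene ranged from 0% to 6.7%. A difference in this transcript was not tested and cannot be read from values so near 0. Use of the beta form was not otherwise measured. The transcripts of the main first exon held 71.2% to 81.8%.

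*Mlx*, the partner that ChREBP needs to bind DNA, was at 24.0, 26.3 and 26.7 TPM in controls and at 24.4, 30.6 and 21.0 TPM in Alb-Cre+ mice. The Alb-Cre+ mice included both the highest and the lowest of the 6. The ratio of *Mlxipl* to *Mlx* was 0.564, 0.295 and 0.335 in controls and 0.603, 0.44 and 0.617 in Alb-Cre+ mice, which overlapped. The log2 difference of *Mlx* was -0.03 (SE 0.16, 95% confidence interval -0.42 to 0.36). *Mlxip*, which encodes the ChREBP paralog MondoA, was low, at 1.09 to 2.82 TPM, with a difference of -0.09 (SE 0.41). Of the 14 other tested genes of the MYC, MAX and MLX network and of the nuclear factors that act beside ChREBP, 7 were higher and 7 lower, and the genotypes overlapped in every one. Of this list *Myc* had the largest difference, 0.50 (SE 0.54).

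*Txnip* encodes an arrestin-domain protein that binds thioredoxin and limits glucose uptake, and its gene responds strongly to glucose through ChREBP and MondoA. It was at 85.0, 94.3 and 42.6 TPM in controls and at 124, 187 and 78.8 TPM in Alb-Cre+ mice. The genotypes overlapped because Alb-Cre+ mouse 3 lay below controls 1 and 2, yet each Alb-Cre+ mouse was above the control of its number (0.55, 0.99 and 0.88). The log2 difference was 0.81 (SE 0.39). *Arrdc4*, the related glucose-responsive arrestin gene, was at 10.5, 14.9 and 5.90 TPM in controls and at 11.5, 13.4 and 11.8 TPM in Alb-Cre+ mice, a difference of 0.32 (SE 0.32). *Txn1*, which encodes the thioredoxin bound by TXNIP, differed by -0.01 (SE 0.13). The ratio of *Txnip* to *Txn1* was 0.471, 0.476 and 0.24 in controls and 0.685, 0.886 and 0.479 in Alb-Cre+ mice. In this ratio the lowest Alb-Cre+ mouse was just above the highest control. The genotypes overlapped in the other ratios taken, those of *Txnip* to *Arrdc4*, *Pklr* to *Pkm* and *Mlxipl* to *Mlxip*. Of 9 tested genes of the arrestin and thioredoxin families, 6 were higher and 3 lower, with a median of 0.03, and *Arrdc4* and *Arrdc2* (0.22, SE 0.44) had the largest differences.

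**Figure D3:**
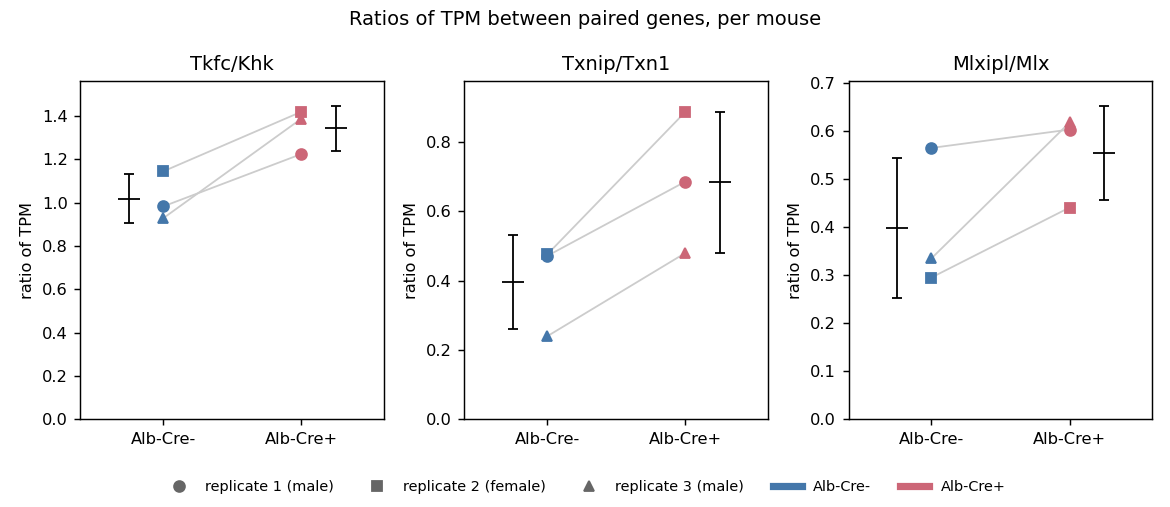
Ratio of TPM within each mouse (y axis, from 0) for *Tkfc* over *Khk*, *Txnip* over *Txn1* and *Mlxipl* over *Mlx*; shapes mark the replicate number and sex, grey lines join same-numbered mice, and black bars give the mean ± SD. The groups do not overlap for *Tkfc* over *Khk* (means 1.02 and 1.34), are separated only narrowly for *Txnip* over *Txn1*, and overlap for *Mlxipl* over *Mlx*.

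*Slc2a2* encodes GLUT2, the transporter through which glucose and fructose cross the hepatocyte membrane. It was at 87.5, 105 and 45.9 TPM in controls and at 118, 147 and 78.2 TPM in Alb-Cre+ mice, which overlapped, and the log2 difference was 0.56 (SE 0.35). Again each Alb-Cre+ mouse was above the control of its number (0.43, 0.48 and 0.77). On TPM as deposited, the 6 mice stood in the same order for *Slc2a2* as for *Txnip*, control 3 lowest, then Alb-Cre+ 3, controls 1 and 2, and Alb-Cre+ 1 and 2. Of the 14219 genes tested, 90 had this order, and after rescaling by median of ratios the orders of *Slc2a2* and *Txnip* differed. A transcript annotated with a retained intron held 27.7% to 35.3% of *Slc2a2* TPM in the 6 mice, without a division by genotype.

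*Gckr* encodes a regulatory protein of the hepatocyte that binds fructose phosphates. It was at 43.3, 28.1 and 43.5 TPM in controls and at 49.3, 52.9 and 35.0 TPM in Alb-Cre+ mice, and the pair differences had both signs (0.19, 0.91 and -0.31). The log2 difference was 0.26 (SE 0.23, 95% confidence interval -0.29 to 0.81). Transcripts annotated with a retained intron held 10.4%, 11.6% and 8.68% of *Gckr* TPM in controls and 15.4%, 16.3% and 12.7% in Alb-Cre+ mice, so their share did not overlap between genotypes, although the share of such transcripts in the whole library did (1.12% to 1.39% in controls and 1.07% to 1.61% in Alb-Cre+ mice). The shares of *Gckr* were looked at after other values had been seen and were not tested. Of 16 tested genes of glucose entry and sensing, 9 were higher and 7 lower, and the 1 gene whose genotypes did not overlap was *Slc2a1*, which encodes GLUT1, at 5.93 to 6.66 TPM in controls and 3.29 to 5.57 TPM in Alb-Cre+ mice. Of the 14219 tested genes, 385 likewise lay lower in all Alb-Cre+ mice than in all controls.

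**Figure D4:**
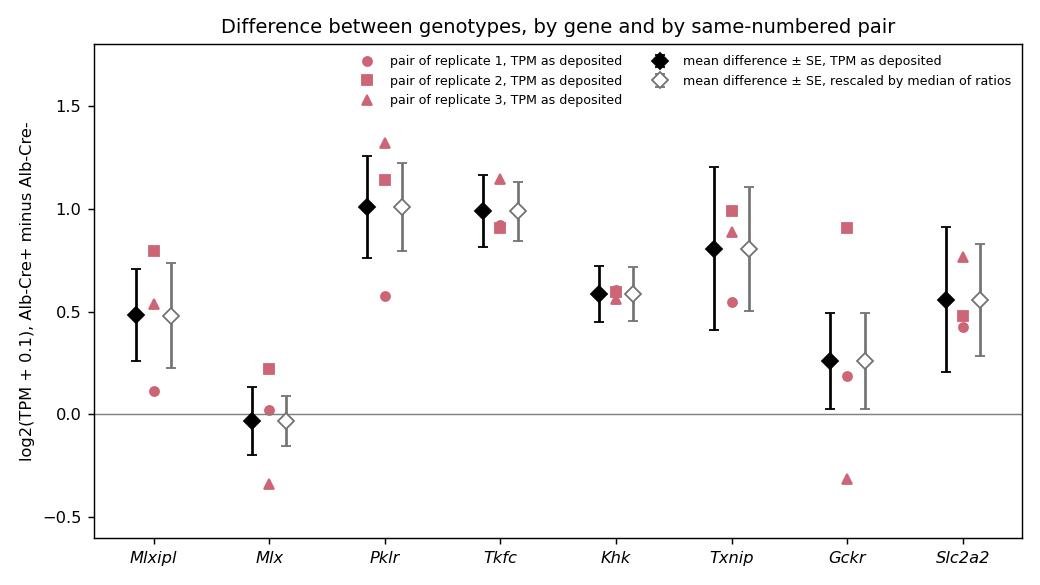
Difference in log2(TPM + 0.1) between Alb-Cre+ and *Alb-Cre-* livers for each gene (y axis). Black diamonds give the mean difference ± SE on TPM as deposited, open diamonds the same after rescaling by median of ratios, and red symbols the 3 same-numbered pairs. The symbols of *Khk* lie together near 0.59, those of *Gckr* run from -0.31 to 0.91, and the open diamonds sit close to the black ones.

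In 5 of the 8 genes, *Pklr*, *Tkfc*, *Khk*, *Txnip* and *Slc2a2*, the mice had their lowest value in control 3 and their highest in the female Alb-Cre+ mouse 2. That pattern, looked for after the values had been seen, was present in 10.9% of all tested genes. It depended on the scale: the median-of-ratios size factors, which estimate how far a typical gene is shifted in a library, were 1.22 for Alb-Cre+ mouse 2 and 0.937 for control 3, and after division by them the pattern held for 2 of the 8 genes (*Txnip* and *Slc2a2*) and for 5.65% of all genes. The difference between genotypes was little affected. After rescaling, *Tkfc* was at 209, 233 and 183 in controls and at 403, 390 and 445 in Alb-Cre+ mice, *Khk* and *Pklr* again did not overlap between genotypes, and *Txnip* no longer overlapped, at 45.5 to 86.9 in controls and 92.4 to 154 in Alb-Cre+ mice.

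The profiles of *Tkfc*, *Pklr* and *Mlxipl* over the 6 mice were also set beside those of the 10646 other genes whose mean reached 1 TPM, by the root mean square difference of centred log2 values, where 0 would be an identical profile. This likeness is a description, and it includes the genotype difference by which the genes were chosen. The profiles nearest to *Tkfc* were those of *Hapln4* (0.13), *Gm15694* (0.136) and *Utp20* (0.178), all at 0.762 to 3.44 TPM. *Pklr* ranked 8 and *Khk* ranked 13 among the neighbours of *Tkfc*. Nearest to *Pklr* were *Rnf152* (0.21), *A930004D18Rik* (0.211) and *Tkfc* (0.213), and nearest to *Mlxipl* were *Ehmt1* (0.079), *Gpsm2* (0.125) and *Hdhd3* (0.127). Of the 8 genes, the one nearest to *Mlxipl* was *Khk*, at rank 474, while *Pklr* ranked 3367 and *Tkfc* ranked 5296.

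Other textbook targets of ChREBP were read from a list of 27 genes, of which 26 were tested. In Alb-Cre+ livers 21 were higher and 5 lower (49.7% of all genes were higher), none passed the test, and the median log2 difference was 0.21, beside 0.57 for the 8 genes. In 5 of them, against 2.19% of all genes, the Alb-Cre+ mice lay above all controls: *Thrsp* and *Mid1ip1*, which encode related regulators of lipogenesis, *Fasn* (fatty acid synthase), *Elovl6* (a fatty acid elongase) and *Acacb* (acetyl-CoA carboxylase 2). *Thrsp* was at 15.1, 19.7 and 15.4 TPM in controls and at 87.0, 31.1 and 86.2 TPM in Alb-Cre+ mice, and *Fasn* at 4.41, 8.76 and 3.68 TPM and at 16.1, 13.5 and 11.1 TPM. *Mid1ip1*, *Acacb* and *Elovl6* differed by 0.91 (SE 0.29), 0.64 (SE 0.21) and 0.35 (SE 0.21). This list was also chosen with earlier results of these data known, so nothing is read from its counts.

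Not all targets of the list pointed the same way. *Fgf21*, a fasting- and sugar-responsive hormone gene, and *Scd1*, which encodes a desaturase, are named after their values were seen, as the targets with the lowest differences. *Fgf21* was at 22.7, 70.4 and 9.19 TPM in controls and at 4.52, 16.9 and 2.57 TPM in Alb-Cre+ mice. *Scd1* was at 71.1, 51.6 and 248 TPM in controls and at 16.0, 13.3 and 79.7 TPM in Alb-Cre+ mice. For both, the genotypes overlapped, and the differences were -2.05 (SE 0.88) and -1.91 (SE 0.81). Each Alb-Cre+ mouse was below the control of its number for both genes, as in 1768 of the 14219 tested genes.

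Glycolysis outside *Pklr* showed no gene whose genotypes did not overlap: of 14 tested genes 11 were higher and 3 lower, with a median of 0.07, and the largest differences were those of the enolase gene *Eno1* (0.29, SE 0.18) and the phosphofructokinase gene *Pfkm* (0.19, SE 0.17). Of 13 genes that respond to fasting, 7 were higher and 6 lower. The 1 gene of these whose genotypes did not overlap was *Cpt1a*, which encodes the carnitine palmitoyltransferase of mitochondrial fat oxidation, at 273, 270 and 187 TPM in controls and at 158, 179 and 130 TPM in Alb-Cre+ mice, a difference of -0.63 (SE 0.20). All Alb-Cre+ mice lay below all controls in 385 of the 14219 tested genes.

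**Figure D5:**
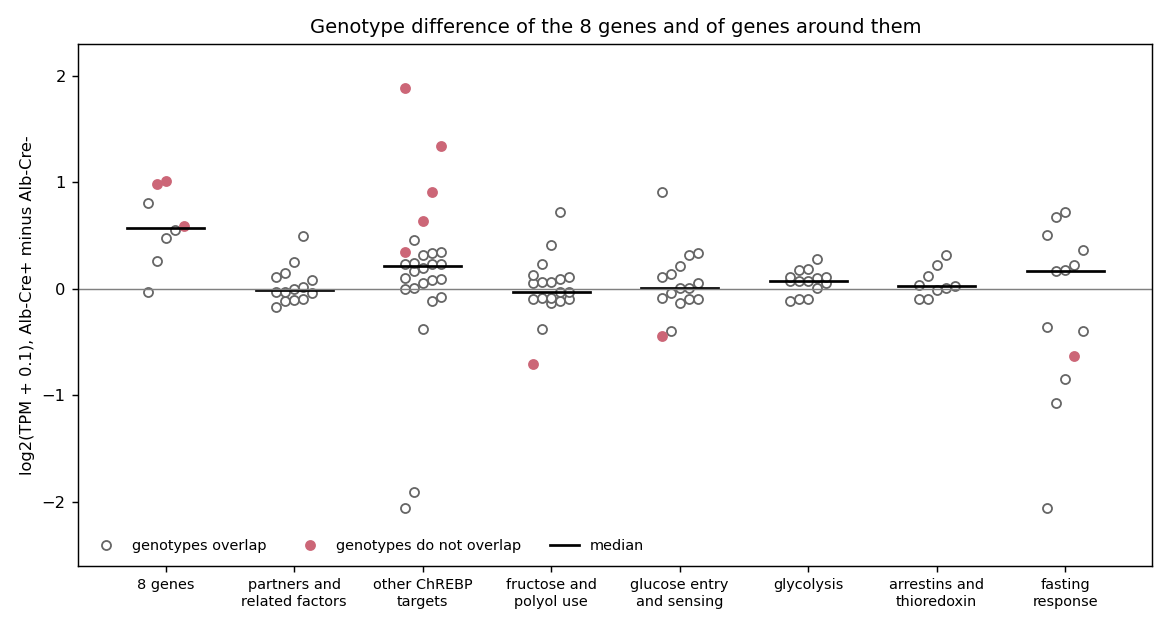
Difference in log2(TPM + 0.1) between Alb-Cre+ and *Alb-Cre-* livers (y axis) for the 8 genes and for 7 lists of related genes, with the 8 genes left out of the lists. Each point is a gene, filled red where the genotypes do not overlap, and the black line is the median of the list. The median of the 8 genes is 0.57, that of the other ChREBP targets 0.21, and that of fructose and polyol use -0.03.

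Sex was compared because it had no part in the choice of the genes, with genotype in the same fit and 2 females against 4 males. Both females carried the replicate number 2, so sex and that number cannot be told apart. Of all tested genes, 72 (0.506%) passed an adjusted p of 0.01, and none of the 8 genes did. On TPM as deposited the nearest were *Tkfc*, higher in females by 0.35 on the log2 scale (SE 0.12, limma adjusted p = 0.123), *Txnip*, by 0.78 (SE 0.30, limma adjusted p = 0.154), and *Slc2a2*, by 0.67 (SE 0.28, limma adjusted p = 0.174). These differences have to be read against a shift of the whole library, since the median of all genes was 0.26 higher in females, and -0.01 after rescaling by median of ratios. Of the 8 genes, 6 were higher in females on TPM as deposited and 3 after rescaling, when *Mlx*, *Pklr* and *Khk* took a negative sign. After rescaling the nearest to the threshold was *Mlxipl*, with a difference of -0.55 (SE 0.17, limma adjusted p = 0.0975), against -0.27 as deposited. *Tkfc* then differed by 0.07. Among genes with an unadjusted p under 0.05, 3637 of 4079 were higher in females as deposited and 1863 of 3891 after rescaling. In a test of whether the genotype difference itself differed between the sexes, no gene of the table passed an adjusted p of 0.01 in limma (0%), these 8 included.

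The liver held other cells beside hepatocytes, and their markers were read in the same mice. Hepatocyte markers were abundant, at 58470 to 77640 TPM in sum in Alb-Cre+ mice and 74810 to 88320 TPM in controls, with 5 of 7 lower in Alb-Cre+ mice. For 2 of the 7, named after their values were seen, all Alb-Cre+ mice lay below all controls, as in 385 of the 14219 tested genes. *Apoa1*, the gene of the main protein of high-density lipoprotein, was at 17603, 20844 and 15764 TPM in controls and at 10222, 9779 and 8802 TPM in Alb-Cre+ mice (-0.91, SE 0.24), and the transthyretin gene *Ttr* differed by -0.37 (SE 0.18). Their part in the values of the 8 genes was not tested. The summed markers of Kupffer cells (149 to 559 TPM in Alb-Cre+ mice and 200.5 to 534 TPM in controls), endothelial cells, stellate cells, cholangiocytes, lymphoid cells and erythroid cells overlapped between genotypes, and no marker was at 0 in any mouse. Between sexes all 7 Kupffer markers were higher in females at an unadjusted p under 0.05 (25.6% of all genes were), with sums of 534 and 559 TPM in females and 149 to 234 TPM in males, and their part in the values of *Txnip* and *Slc2a2* in females was not tested.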

How the data were processed

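RNA sequencing of 6 livers was analysed, 3 per genotype, grouped by the genotype in the labels. The authors deposited TPM per transcript and mouse (116748 transcripts, 1000000 in sum per mouse). The file is named as salmon output and the labels name STAR, RSEM, Salmon and GRCm38, whereas the methods name STAR and RSEM; tool versions are not given in the sources used here. Since TPM carry no counts of reads, sequencing depth is not known and counting error is not given. Length-corrected estimates divide reads among overlapping transcripts, which makes single transcripts less certain than genes. A second table holds the authors' DESeq2 comparison (mean normalized count, log2 fold change and its error, Wald statistic, p-values) and was not used.

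TPM were summed per symbol, and 163 transcripts without a symbol were kept apart. Genes whose mean reached 0.1 TPM were fitted on log2(TPM + 0.1) with limma 3.58.1 (R 4.3.3, empirical Bayes with a trend), genotype as the only factor, Benjamini-Hochberg threshold 0.01. Fold changes are on this scale, which understates low genes. The fit was run on simulated data whose differences were all larger than those of the 8 genes. It therefore does not show how well differences of their size are found. The members, gene lists, named genes and tests were chosen with earlier results of these data known. Named genes were the 8 members, *Surf4*, their pathway neighbours, the genes of each list (mean 1 TPM or more) whose genotypes do not overlap or else the 2 with the largest difference, and the 3 nearest profiles. Some genes that meet this rule are not reported here, though the counts over lists include them. Same-numbered mice deviated together (r = 0.366, 0.586 and 0.37 across genes, which are not independent), so a replicate block was fitted as an alternative. Alternatives further covered sex as a covariate, filters, pseudocount, scaling, trend, threshold and each mouse left out. P-values measure the spread between these 3 mice per genotype.

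Transcripts were matched by ID without version to GENCODE M21 (GRCm38), 115637 of 116748, of which 13 had the same version number. Promoter windows are RefSeq's (GRCm38.p6).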

Additional observations from a re-analysis of the deposited data

How the results depend on the processing

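The genotype difference of each of the 8 genes kept its sign under every alternative tried, except for *Mlx*, whose difference (-0.03) was 0.093 without Alb-Cre+ replicate 3 and as low as -0.18 with another mouse left out. With 1 mouse left out, the difference of 4 more genes moved by over 1.5 times. For *Slc2a2* (0.56) it was 0.20 without Alb-Cre- replicate 3 and 0.35 without Alb-Cre+ replicate 2, and for *Txnip* (0.81) it was 0.45 and 0.50 without the same mice. For *Mlxipl* (0.48) it was 0.32 without Alb-Cre- replicate 2. For *Gckr* (0.26) it was 0.052 without Alb-Cre- replicate 2, 0.14 without Alb-Cre+ replicate 2 and 0.44 without Alb-Cre+ replicate 3. The number of the 8 genes that were higher in Alb-Cre+ mice was 7 under all settings with 6 mice, and 7 to 8 with 1 mouse left out. The number of genes past the threshold for genotype was 0 under all settings with 6 mice, including the replicate block, and 0 to 1 with 1 mouse left out. The 1 call appeared without Alb-Cre+ replicate 1 and was *Gm10240*, which was at 0 in every control and in that mouse. With the replicate block the number at an unadjusted p under 0.05 was 666 in place of 249, and the block changed no call. It was 496 and 776 with the block together with a minimum mean of 1 TPM or with median of ratios, pairs of choices added after the data were seen. The number of *Mlxipl* transcripts higher in Alb-Cre+ mice was 10 of 10, and 9 to 10 with 1 mouse left out.

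The sex comparison was less stable. Of all genes 72 passed, but 28 without a filter, 31 without the trend, 1018 at an adjusted p of 0.05 and 3 to 50 with 1 mouse left out. It fell to 3 without Alb-Cre- replicate 2 and also without Alb-Cre+ replicate 2, each of which leaves 1 female. Of the 8 genes, 6 were higher in females, but 3 under median of ratios, and 6 to 7 with 1 mouse left out. Under median of ratios the sex difference was -0.041 for *Mlx*, -0.051 for *Pklr* and -0.12 for *Khk*. That of *Gckr*, -0.14 with all mice, ran from -0.62 to 0.35 with 1 mouse left out, the highest without Alb-Cre- replicate 2. The cause was not tested. Since TPM carry no depth, the precision of low values such as those of the upstream *Mlxipl* transcript is unknown.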
